A study of Arabidopsis thaliana with 12 samples.

Results

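Heated germinating seeds of atcyp18-1, an Arabidopsis thaliana line named after the cyclophilin gene CYP18-1, were compared with heated seeds of the wild type (WT). The comparison used 6 of the 12 libraries of the study, taken by their titles: 3 of atcyp18-1 heat and 3 of WT heat. The other 6, 3 of atcyp18-1 normal and 3 of WT normal, were unheated. All 4 groups were seeds that had been kept at 4 °C for 2 days and were taken 1 day after imbibition, and the heated groups were held at 45 °C for 2 h. The kind of allele, the number of independent lines and the background accession were not given in the sources used here. Libraries were made from polyadenylated RNA of seeds, so the embryo, endosperm and seed coat are mixed, and fewer cells of a type and less RNA per cell cannot be told apart.

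Cyclophilins are peptidyl-prolyl isomerases, enzymes that turn proline bonds in proteins, and several of them are found in spliceosomes. When heat unfolds proteins, heat shock factors drive the genes of small heat shock proteins and of larger chaperones such as HSP70, HSP90 and HSP100, and heat also hinders splicing so that introns stay in transcripts. In seeds, abscisic acid (ABA) holds germination back and keeps genes of storage and late embryogenesis abundant (LEA) proteins active, while the growing embryo turns to stored lipid and then to light.

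The deposited counts covered 23337 genes, of which 17296 passed the filter on low counts and were tested. Library totals were 9842006, 7602727 and 7468922 counts for atcyp18-1 heat libraries 1 to 3, and 9279228, 8344553 and 10506481 counts for WT heat libraries 1 to 3. The first principal component of the 6 libraries, with 45.6% of the variance, put the mutant libraries at 26.41, 14.18 and 30.76 and the WT libraries at -24.96, -28.80 and -17.58. Library 2 of atcyp18-1 heat thus lay nearest to WT, and library 3 of WT heat lay nearest to the mutant. Among the genes called higher, mutant library 2 was the lowest mutant library in 793 of 1413 and WT library 3 the highest WT library in 728 of 1413. Nothing in the labels says that the libraries came from separate plants or seed batches, so p-values reflect only how far these samples vary, and that variation may be technical. Among markers of other seed tissues, MUM4 of the seed coat was called lower (-0.49) and the others were not called; its call was lost under 10 of the 14 alternatives, DESeq2 size factors among them. The summed level of 4 measured endosperm and seed coat markers of 10 was 969, 946 and 870 CPM in atcyp18-1 heat against 865, 962 and 1050 CPM in WT heat (CPM, the read count relative to the TMM-scaled library total). For 4 measured root meristem markers of 5 it was 18.6 to 23.2 CPM in atcyp18-1 heat against 22.6 to 23.7 CPM in WT heat.

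CYP18-1 (AT1G01940, TAIR10.1 chromosome 1, bases 322886 to 324917) had 3.85, 2.17 and 4.08 CPM in atcyp18-1 heat and 25.3, 25.2 and 26.2 CPM in WT heat. Every mutant library was far below every WT library, and the mutant mean was 13.2% of the WT mean. The log2 difference, mutant minus WT as throughout, was -2.91 ± 0.16 (SE; edgeR quasi-likelihood test, adjusted p = 3.14e-10). On this value alone the two-sided exact permutation p was 0.1, the smallest that 3 libraries against 3 allow.

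Across the tested genes, 2881 (16.7%) differed between heated atcyp18-1 and heated WT at an adjusted p under 0.05, 1413 higher (8.17%) and 1468 lower (8.49%) in the mutant. Most differences were small: the median size among called genes was 0.49 on the log2 scale, and 342 genes differed at least 2-fold, 143 higher and 199 lower. The median over all tested genes was -0.02. The split into higher and lower was 49.0% higher with TMM scaling and 14.1% with plain library sizes (577 higher, 3505 lower), where the all-gene median shifted by -0.16, so directions are relative to the typical gene. Without atcyp18-1 heat 3 the counts were 825 higher and 864 lower, without atcyp18-1 heat 1 they were 880 and 885, and without WT heat 2 they were 865 and 956.

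The largest rises joined genes of unknown function with genes of light capture, the clock, ABA and cold. The 15 largest rises and 15 largest falls were taken only from called genes whose groups did not overlap. For these genes a lack of overlap is therefore no finding, here or where they are described with their groups. Apart from those described with their groups, AT3G28899 (hypothetical protein) had 12.3, 12.8 and 11.8 CPM in atcyp18-1 heat and 0.767, 1.66 and 1.11 CPM in WT heat, the largest called difference at 3.38 ± 0.21 (SE; edgeR adjusted p = 9.7e-10). AT1G27565, also a hypothetical protein, had 5.14, 6.67 and 3.92 CPM in atcyp18-1 heat and 0.986, 1.19 and 0.405 CPM in WT heat. Both genes were called higher without heat too, by 3.47 and 2.06. AT5G18450, a DNA-binding protein of the AP2/ERF type, had 38.6, 14.1 and 35.9 CPM in atcyp18-1 heat against 7.12, 6.28 and 8.20 CPM in WT heat (2.04 ± 0.26, edgeR adjusted p = 2.23e-05). AT3G53830, of the RCC1 family, had 37.4, 20.4 and 41.3 CPM in atcyp18-1 heat against 6.79, 6.40 and 13.2 CPM in WT heat (1.89 ± 0.24, edgeR adjusted p = 2.32e-05). In these last genes mutant library 2 was the lowest of its group, though above all WT libraries as the choice of genes required. AT3G07255 (2.03), AT4G27657 (1.96), AT4G29770, a target of trans-acting small RNAs (1.89), and AT4G01985 (1.88) completed the rises outside the gene lists.

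The largest falls after CYP18-1 held 4 plastid-encoded ribosomal genes, described with the organelles. AT3G60760 (hypothetical protein) had 1.05, 1.31 and 1.41 CPM in atcyp18-1 heat against 4.93, 6.99 and 3.74 CPM in WT heat, a difference of -2.05 ± 0.29 (SE; edgeR adjusted p = 8.43e-05). PMZ, an AN1-type zinc finger gene, had 5.25, 3.05 and 3.92 CPM in atcyp18-1 heat against 11.3, 17.3 and 17.41 CPM in WT heat (-1.88 ± 0.21, edgeR adjusted p = 6.5e-06). That every mutant library lay below every WT library was a condition for naming these falls. RABA4C, a small GTPase of vesicle traffic, had 2.34, 1.45 and 2.51 CPM in atcyp18-1 heat against 5.81, 6.40 and 6.48 CPM in WT heat (-1.56). CML38, a calmodulin-like calcium sensor, had 5.84, 3.91 and 4.87 CPM in atcyp18-1 heat against 15.99, 10.9 and 14.3 CPM in WT heat (-1.48). LOJ (-1.60) and AT3G16010 (-1.43) encode pentatricopeptide repeat proteins, a family whose members bind RNA of organelles. AT5G47330 (-1.63), AT4G37860 (-1.46), AT2G32210 (-1.45), AT1G72570 (-1.45) and AT3G28170 (-1.44) made up the rest.

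Of these 30 genes, 3 lie close together on chromosome 3, a pattern noticed after their values were seen. Between AT3G28170 and AT3G28899 (10498177 to 10902515, 404 kb, TAIR10.1) 30 genes were tested and 10 were called in heat. PMZ, AT3G28170 and AT3G28899 are among them, and so is CYP81D11, a cytochrome P450, at 19.03 CPM in atcyp18-1 heat and 5.24 CPM in WT heat (means, n = 3 each; log2 difference 1.87). Of the 10, 8 were called in the same direction without heat, against 48.6% of all genes called in heat. The stretch was drawn to start at AT3G28170 and end at AT3G28899, both called, with PMZ between them. Its share of calls therefore cannot be read against the 16.7% of all genes. Nor can the 8 of 10 be read against the 48.6%, since AT3G28170, PMZ and AT3G28899 were picked for their large differences.

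The heat shock genes stood higher in heated atcyp18-1 than in heated WT. Of 67 tested genes of 4 lists (heat shock factors and heat-responsive regulators, small heat shock proteins, HSP60 to HSP100 chaperones, and co-chaperones), 34 were higher and 2 lower, against 8.17% and 8.49% of all tested genes. The level of these genes varied with the library within each genotype. Mutant library 2 was the lowest mutant library in 33 of the 34 and WT library 3 the highest WT library in 31, and the groups did not overlap in 12 of the 34. Over all tested genes 32.6% did not overlap in either direction, and over all genes called higher 87.8%. The count of 34 was 18 without atcyp18-1 heat 1, 20 without atcyp18-1 heat 3, 20 without WT heat 2 and 24 by DESeq2, and 44 without atcyp18-1 heat 2. Without heat 2 of the 67 were higher and 15 lower in the mutant, against 11.2% and 12.2% of all tested genes. Of the 67, 16 had a genotype difference that was higher in heat than without it, against 1.08% of all tested genes in either direction. The number of genes called in this test over the whole table depended strongly on single libraries, as given below. The 16 is given for the full fit only. These lists and those below were chosen with earlier results of these data known, so the shares are no independent test.

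Among the regulators, 7 of 21 tested genes rose and 1 fell, against 8.17% and 8.49% of all tested genes (median -0.02, as over all genes). HSFA7B, a heat-induced heat shock factor, had 281, 149 and 287 CPM in atcyp18-1 heat against 123, 79.6 and 171 CPM in WT heat, 0.94 ± 0.20 higher (SE; edgeR adjusted p = 0.0032). Mutant library 2 lay below WT library 3, so the groups overlapped. HSFB1 (0.81), HSFB2B (0.79) and HSFB2A (0.64), class B factors that mostly act as repressors, rose too, HSFB2A with its call lost under 8 of the 14 alternatives. HSFA7A (0.63), the coactivator MBF1C (0.50) and HSFA1E (0.38), one of the master factors of the response, were also higher. HSFA2, which prolongs the response, had 545, 348 and 493 CPM in atcyp18-1 heat and 328, 268 and 446 CPM in WT heat, and missed the threshold (0.41 ± 0.15, edgeR adjusted p = 0.0562). The other master factors, HSFA1A (-0.29), HSFA1B (-0.02) and HSFA1D (-0.61, edgeR adjusted p = 0.0559), were not called. HSFA3, which acts after DREB2A, was lower at 2.102, 1.45 and 0.785 CPM in atcyp18-1 heat against 3.61, 3.44 and 3.54 CPM in WT heat, with no overlap (-1.23 ± 0.31, edgeR adjusted p = 0.00908). DREB2A itself (-0.05) was not called. This list is the least steady of the group, with 1 rise without atcyp18-1 heat 1, 1 without atcyp18-1 heat 3, 2 without WT heat 2 and 3 by DESeq2.

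Of 17 small heat shock proteins, which hold unfolding proteins in solution, 12 rose and 1 fell, against 8.17% and 8.49% of all tested genes. Their median difference was 0.77 against -0.02 over all genes. HSP18.2, a cytosolic member, had 82.8, 35.1 and 76.4 CPM in atcyp18-1 heat against 15.99, 10.3 and 24.4 CPM in WT heat, 1.93 ± 0.25 higher (SE; edgeR adjusted p = 3.59e-05). HSP22.0, of the endoplasmic reticulum (ER), had 299, 148 and 287 CPM in atcyp18-1 heat against 70.3, 48.8 and 124 CPM in WT heat (1.59 ± 0.23, edgeR adjusted p = 0.000115). HSP21, of the plastid, had 91.9, 42.2 and 90.9 CPM in atcyp18-1 heat against 23.3, 19.8 and 41.6 CPM in WT heat (1.401 ± 0.233, edgeR adjusted p = 0.00035). These 3 did not overlap, which was a condition for naming HSP18.2 among the largest rises. HSP21 of mutant library 2 and of WT library 3 were nearly level. AT1G07400 (1.15), AT1G53540 (1.11) and the mitochondrial HSP23.6-MITO (0.92) followed, all with overlapping groups. AT4G21870 was the exception, at 37.9, 41.5 and 37.5 CPM in atcyp18-1 heat against 52.9, 53.4 and 45.4 CPM in WT heat (-0.38 ± 0.10, edgeR adjusted p = 0.0184). The number of rises was 6 by DESeq2, 6 without atcyp18-1 heat 1, 7 without atcyp18-1 heat 3 and 7 without WT heat 2; without atcyp18-1 heat 2 or without WT heat 3 it was 15, with a median of 1.04.

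**Figure D1:**
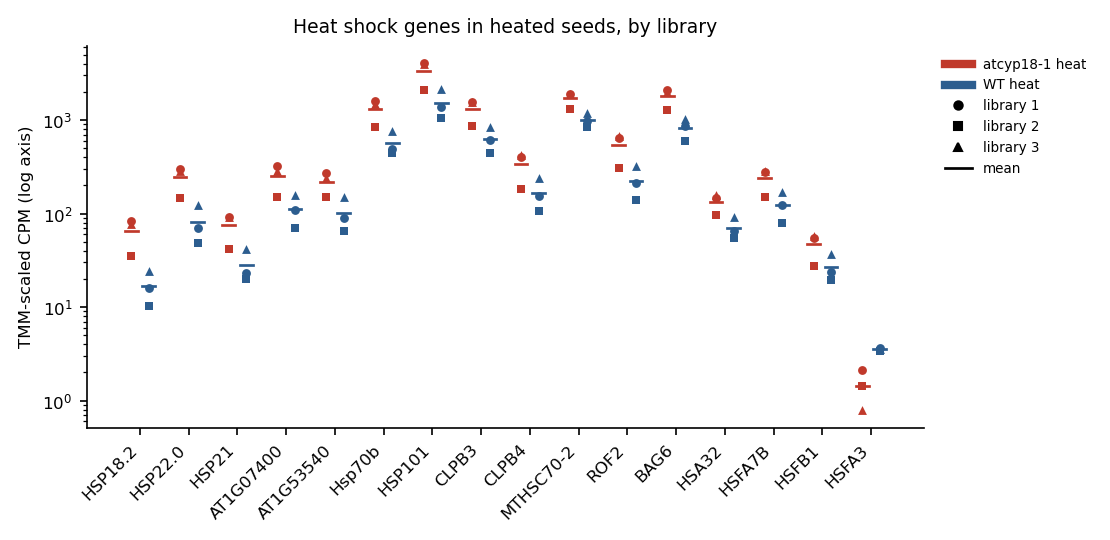
TMM-scaled CPM (log axis) of 16 heat shock genes in each library, atcyp18-1 heat in red and WT heat in blue; symbols mark the library number and bars the group mean. Library 2 of atcyp18-1 heat (red square) is the lowest of its group in all shown rises, and in several of them it lies near or below library 3 of WT heat (blue triangle); HSFA3 runs the other way.

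Of 19 larger chaperones, 10 rose and none fell by edgeR (median 0.30), against 8.17% and 8.49% of all tested genes. Plain library sizes gave 7 rises and 1 fall. HSP101, the disaggregase needed for heat tolerance, had 4081, 2082 and 3949 CPM in atcyp18-1 heat against 1389, 1051 and 2132 CPM in WT heat, 1.14 ± 0.22 higher (SE; edgeR adjusted p = 0.00136). Its mutant library 2 fell just short of WT library 3. Hsp70b, a heat-induced cytosolic HSP70, had 1579, 834 and 1499 CPM in atcyp18-1 heat against 487, 446 and 762 CPM in WT heat (1.21 ± 0.19, edgeR adjusted p = 0.000262), with no overlap. The organelle disaggregases CLPB3 (plastid, 1.07) and CLPB4 (mitochondrion, 1.009) and the mitochondrial MTHSC70-2 (0.76) rose, as did HSP90.1 (0.72), CPHSC70-1 of the plastid (0.55), HSP70 (0.51), HSP90.2 (0.35) and HSP90.4 (0.24). HSC70-1, the abundant constitutive HSP70, had 6718, 6429 and 6930 CPM in atcyp18-1 heat and 6063, 5440 and 6177 CPM in WT heat and was not called (0.18, edgeR adjusted p = 0.0528). HSP90.2, HSP90.3 and HSP90.4 are near-identical, so the split of reads between them is uncertain. Of 10 co-chaperones 5 rose (median 0.45), against 8.17% of all tested genes. ROF2, an FKBP-type partner of HSP90, had 640, 308 and 681 CPM in atcyp18-1 heat against 214, 140 and 321 CPM in WT heat (1.27 ± 0.23, edgeR adjusted p = 0.00079). BAG6 had 2069, 1278 and 2008 CPM in atcyp18-1 heat against 861, 595 and 1036 CPM in WT heat (1.103 ± 0.165, edgeR adjusted p = 0.000135). BAG6 did not overlap and ROF2 did. HSA32 (0.92), which sustains acquired heat tolerance, ROF1 (0.71) and HOP2 (0.41), which joins HSP70 to HSP90, also rose. The call of HOP2 was lost under 7 alternatives. The count for the larger chaperones was 7 without atcyp18-1 heat 1, 7 without WT heat 2, 8 without atcyp18-1 heat 3 and 14 without atcyp18-1 heat 2; that for the co-chaperones was 8 with the replicate block.

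The plastid small heat shock gene HSP21 is shown with the 250 bases upstream of its annotated start (TAIR10.1, chr4:13819972-13820221, minus strand). It had the widest gap between its heated and unheated genotype difference among the 16 heat shock genes called in that comparison. The gap rests in part on low unheated levels, 0.8019, 0.5715 and 1.221 CPM in atcyp18-1 normal against 3.904, 3.006 and 2.365 CPM in WT normal. Capitals mark a match to GAANNTTC, the core of the element that heat shock factors bind.
HSP21 upstream: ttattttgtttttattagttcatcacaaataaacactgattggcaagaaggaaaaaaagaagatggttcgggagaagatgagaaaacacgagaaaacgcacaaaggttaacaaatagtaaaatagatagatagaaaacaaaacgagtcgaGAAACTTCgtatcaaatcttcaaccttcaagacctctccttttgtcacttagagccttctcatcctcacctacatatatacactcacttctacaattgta
Among the 17 small heat shock genes 4 had this motif in that window, among the 19 larger chaperones 0 did, and 9.28% of 17086 tested nuclear genes did. Genes higher in the heated mutant held it in 9.59% of cases and genes lower in it in 9.19%. The motif is a palindrome in its fixed letters, so both strands give the same matches, and a match is a description of letters, not of binding.

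Protein folding in the ER followed a mixed course. Of 18 tested genes 4 rose and 2 fell (median -0.02), against 8.17% and 8.49% of all tested genes. Without heat 1 was higher and 10 lower in the mutant, against 11.2% and 12.2% of all tested genes. BIP1, the ER HSP70, had 460, 352 and 462 CPM in atcyp18-1 heat against 340, 292 and 313 CPM in WT heat, 0.43 ± 0.09 higher (SE; edgeR adjusted p = 0.00321). AT5G07340, a calnexin, which helps glycoproteins fold, had 330, 289 and 321 CPM in atcyp18-1 heat against 200, 186 and 250 CPM in WT heat (0.56 ± 0.09, edgeR adjusted p = 0.000214). Neither overlapped. ERDJ3A (0.96), a DnaJ partner of BiP, and BZIP28 (0.43), a membrane-bound factor that switches on ER folding genes, rose with overlapping libraries. CRT1A, a calreticulin (-0.25), and ERO1, which makes disulfide bonds (-0.59), fell. The call of BZIP28 was lost under 7 alternatives and that of ERO1 under 8. The list had 3 rises and no fall without WT heat 1 or without atcyp18-1 heat 1, and 2 rises and no fall without atcyp18-1 heat 3. BIP2 (0.10), nearly identical to BIP1, and the ER HSP90 SHD (-0.15) were not called.

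ABA signalling genes stood higher in the heated mutant, 8 of 15 with 1 lower (median 0.52), against 8.17% and 8.49% of all tested genes. Of those that rose, 6 encode negative regulators: AFP1, AFP3, AHG1, AHG3, HAB1 and HAI2. EDL3, an F-box gene of ABA responses, had 9.57, 2.61 and 10.04 CPM in atcyp18-1 heat against 1.095, 0.592 and 1.72 CPM in WT heat, 2.67 ± 0.41 higher (SE; edgeR adjusted p = 0.000165). AFP1, which binds ABI5 and lowers its action, had 5.02, 4.78 and 4.39 CPM in atcyp18-1 heat against 1.86, 2.25 and 1.72 CPM in WT heat (1.29 ± 0.27, edgeR adjusted p = 0.00219). AHG1, a PP2C phosphatase that blocks ABA signalling in seeds, had 27.8, 19.6 and 30.5 CPM in atcyp18-1 heat against 8.22, 9.83 and 19.6 CPM in WT heat (1.03 ± 0.23, edgeR adjusted p = 0.00476). AFP1 did not overlap, nor did EDL3, for which this was a condition as 1 of the largest rises. AHG1 overlapped only in mutant library 2 and WT library 3, which were nearly equal. AFP3 (1.03) and the phosphatases HAB1 (0.90), HAI2 (0.72) and AHG3 (0.44) also rose, as did the activating factor ABF3 (0.89). ABI4, a transcription factor that restrains germination, fell, with 33.9, 32.8 and 31.9 CPM in atcyp18-1 heat against 45.6, 48.3 and 44.7 CPM in WT heat and no overlap (-0.49 ± 0.11, edgeR adjusted p = 0.0043). ABI3 (0.22), ABI5 (0.33), ABI1 (-0.00) and ABI2 (-0.37) were not called. The list had 6 to 9 rises under the alternatives.

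Genes of ABA synthesis, inositol and cold control differed in places, read against the shares of 8.17% higher and 8.49% lower over all tested genes. Of 9 tested genes of ABA synthesis and breakdown 2 rose, NCED9, which makes the ABA precursor in seeds, and ABA1, an epoxidase of the same route. NCED9 had 5.02, 3.91 and 6.44 CPM in atcyp18-1 heat against 1.42, 1.42 and 2.53 CPM in WT heat (1.48 ± 0.27, edgeR adjusted p = 0.000848), and ABA1 was 0.68 higher. Among 9 genes of inositol and raffinose synthesis 3 rose and 1 fell. MIPS2, an inositol phosphate synthase, had 160, 80.0 and 152 CPM in atcyp18-1 heat against 18.7, 20.1 and 42.3 CPM in WT heat, 2.26 ± 0.24 higher (SE; edgeR adjusted p = 2.6e-06). GOLS1, which starts raffinose synthesis and is a heat shock factor target, had 780, 402 and 882 CPM in atcyp18-1 heat against 210, 164 and 342 CPM in WT heat (1.53 ± 0.23, edgeR adjusted p = 0.000145). GOLS1 kept mutant libraries above WT libraries, and so did MIPS2, for which this was a condition as 1 of the largest rises. MIOX2, which breaks inositol down, fell by 0.56, and MIPS1 rose by 0.50. CBF2, a regulator of cold genes and the only CBF gene above the filter, had 7.71, 4.06 and 12.4 CPM in atcyp18-1 heat against 1.64, 1.19 and 1.42 CPM in WT heat (2.48 ± 0.35, edgeR adjusted p = 8.33e-05).

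Several clock genes stood clearly higher in the mutant. Of 12 tested, 7 rose and none fell by edgeR (median 0.87), against 8.17% and 8.49% of all tested genes. With plain library sizes 7 rose and 4 fell. PRR9, a repressor expressed after dawn, had 20.9, 13.5 and 20.4 CPM in atcyp18-1 heat against 3.72, 3.20 and 5.77 CPM in WT heat, 2.09 ± 0.22 higher (SE; edgeR adjusted p = 1.83e-06). LHY, one of the dawn factors, had 23.4, 20.3 and 23.54 CPM in atcyp18-1 heat against 11.3, 9.60 and 9.92 CPM in WT heat (1.12 ± 0.12, edgeR adjusted p = 2.11e-06). CCA1, its close relative, had 13.8, 10.4 and 13.97 CPM in atcyp18-1 heat against 6.35, 5.45 and 5.06 CPM in WT heat (1.18 ± 0.17, edgeR adjusted p = 0.000119). RVE1 (1.76) and RVE8 (0.94), of the same family, PRR7 (1.14) and GI (0.81) also rose, and in all 7 the groups did not overlap, as in 87.8% of all genes called higher. The other 5, TOC1 (-0.33), PRR5 (-0.67), LUX (-0.36), ELF3 (-0.14) and ELF4 (-0.03), were not called. Groups did not overlap in 11 of the 12 clock genes, against 32.6% of all tested genes. The 7 rises held under each of the 14 alternatives, while 2 genes fell with the replicate block, 1 without WT heat 1 and 1 without atcyp18-1 heat 1. Of the 7, 6 were called higher without heat as well, as were 674 of all 1413 genes called higher in heat.

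Nuclear photosynthesis genes were higher in the mutant. Of 24 tested, 17 rose by edgeR and none fell by edgeR or any alternative, against 8.17% higher and 8.49% lower over all tested genes. The median was 0.74, and all 24 differences were above 0. LHCB1.5, an antenna protein of photosystem II, had 112, 97.0 and 103 CPM in atcyp18-1 heat against 39.7, 22.9 and 26.1 CPM in WT heat, 1.82 ± 0.19 higher (SE; edgeR adjusted p = 3.05e-06). LHCA1, an antenna protein of photosystem I, had 27.6, 26.1 and 21.8 CPM in atcyp18-1 heat against 11.0, 7.23 and 6.17 CPM in WT heat (1.64 ± 0.20, edgeR adjusted p = 2.15e-05). LHCB3 had 54.2, 46.8 and 36.1 CPM in atcyp18-1 heat against 25.9, 15.04 and 14.4 CPM in WT heat (1.32 ± 0.19, edgeR adjusted p = 8.94e-05). Here the order of libraries differed from that of heat shock genes: mutant library 3 was the lowest mutant library in 14 of the 17 and WT library 1 the highest WT library in all 17. LHCB1.1 (2.05), LHCB2.2 (2.03), LHCB1.2 (1.76), LHCB4.2 (1.18) and PSAD1 of photosystem I (0.71) rose with them, and the Rubisco small subunit RBCS1A (0.17) and Rubisco activase RCA (0.32) were not called. The LHCB1 and RBCS genes each include near-identical copies whose reads may be split unevenly. Counts of rises ran from 13 to 20 under the alternatives.

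**Figure D2:**
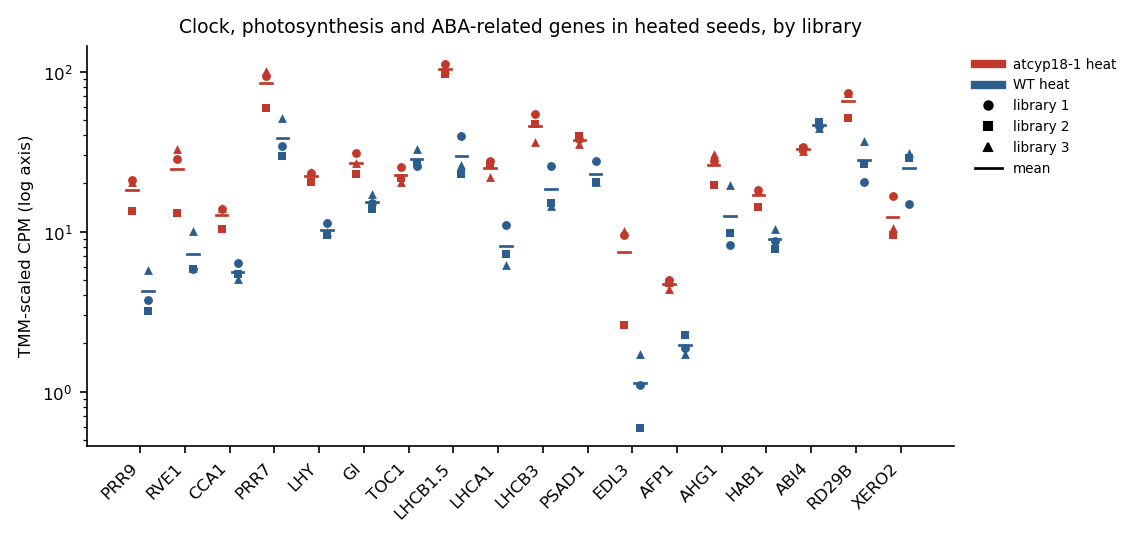
TMM-scaled CPM (log axis) of 18 clock, photosynthesis and ABA-related genes in each library, atcyp18-1 heat in red and WT heat in blue; symbols mark the library number and bars the mean. Red points lie above blue ones for PRR9 to GI and for the antenna genes, and below them for ABI4.

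The ABA-responsive element, searched as ACGTGNC on both strands of the 250 bases upstream of the annotated start, lay in 17.9% of the windows of genes higher in the heated mutant (241 of 1345), in 9.19% of those of genes lower in it (131 of 1426) and in 1718 of all 17086 tested nuclear genes. The clock list had it in 7 of 12, the LEA list in 11 of 17, ABA signalling in 6 of 15 and photosynthesis in 8 of 24, whereas the small heat shock proteins had it in 1 of 17 and the larger chaperones in 2 of 19. No test was run on these shares. The evening element AAATATCT lay in 4.54% of windows of higher genes, 6.52% of lower genes and 4.68% of all. Upstream windows of 3 genes that rose are shown with the ACGTGNC matches in capitals, 2 of them with 3 matches each: PRR9 (TAIR10.1, chr2:19232357-19232606, plus strand), the LEA-list gene RD29B (chr5:21236771-21237020, plus strand) and CBF2 (chr4:13016236-13016485, minus strand).
PRR9 upstream: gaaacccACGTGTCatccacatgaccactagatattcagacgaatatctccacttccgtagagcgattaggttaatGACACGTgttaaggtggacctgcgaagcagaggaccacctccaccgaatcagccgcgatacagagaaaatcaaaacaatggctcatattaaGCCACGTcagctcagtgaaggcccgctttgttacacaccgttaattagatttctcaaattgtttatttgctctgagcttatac
RD29B upstream: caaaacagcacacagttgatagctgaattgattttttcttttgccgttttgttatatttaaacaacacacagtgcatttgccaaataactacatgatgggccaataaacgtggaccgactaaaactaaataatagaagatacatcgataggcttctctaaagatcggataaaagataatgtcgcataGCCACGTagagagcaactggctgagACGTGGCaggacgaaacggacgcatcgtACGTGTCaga
CBF2 upstream: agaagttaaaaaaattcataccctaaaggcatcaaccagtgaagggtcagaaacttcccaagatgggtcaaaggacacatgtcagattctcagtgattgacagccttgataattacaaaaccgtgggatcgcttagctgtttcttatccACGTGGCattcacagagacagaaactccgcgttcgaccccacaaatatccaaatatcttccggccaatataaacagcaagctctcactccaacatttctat

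Many seed storage and some LEA genes stood higher in the heated mutant. Of 14 storage proteins and oleosins 7 rose (median 0.47), against 8.17% of all tested genes, and 12 were called higher in unheated mutant seeds, against 11.2% of all tested genes. CRC, a cruciferin, had 3330, 1938 and 2762 CPM in atcyp18-1 heat against 575, 1129 and 1156 CPM in WT heat, 1.49 ± 0.21 higher (SE; edgeR adjusted p = 6.82e-05). CRA1 (1.26), SESA2 (1.02), SESA1 (0.94), SESA5 (0.90), SESA3 (0.79) and OLEO3 (0.49) rose too, and in all 7 the groups did not overlap, as in 87.8% of all genes called higher. The SESA genes are neighbouring copies, so the split of reads among SESA1 to SESA4 is uncertain. Of 17 LEA and dehydrin genes 6 rose and 1 fell (median 0.24), against 8.17% and 8.49% of all tested genes. RD29B, whose upstream window is given above, had 73.3, 51.2 and 73.0 CPM in atcyp18-1 heat against 20.4, 26.6 and 36.7 CPM in WT heat (1.23 ± 0.17, edgeR adjusted p = 7.09e-05), with no overlap. RD29A (1.23), ECP63 (0.94), LEA4-5 (0.69), XERO1 (0.55) and LEA4-1 (0.40) rose. The dehydrin XERO2 fell, with 16.8, 9.57 and 10.5 CPM in atcyp18-1 heat against 14.9, 28.7 and 31.2 CPM in WT heat, and its groups overlapped (-0.99 ± 0.23, edgeR adjusted p = 0.00617).

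Reserve use, wall loosening and gibberellin control were taken next, read against the shares of 8.17% higher and 8.49% lower over all tested genes. Of 14 genes of storage lipid mobilisation 6 rose with TMM scaling (median 0.13), but with plain library sizes none rose, 2 fell and the median was -0.03. MLS, malate synthase of the glyoxylate cycle, had 5837, 6210 and 6068 CPM in atcyp18-1 heat against 5160, 4856 and 4697 CPM in WT heat (0.30 ± 0.06, edgeR adjusted p = 0.00251). Of 12 cell wall genes 3 fell and 1 rose (median -0.14); with plain library sizes 7 fell, and 6 fell without atcyp18-1 heat 2. EXPA1, an expansin, had 346, 352 and 350 CPM in atcyp18-1 heat against 494, 544 and 548 CPM in WT heat, -0.60 ± 0.08 (SE; edgeR adjusted p = 6.82e-05). XTH9 (-0.82), which remodels xyloglucan, and EXPA10 (-0.57) fell and MAN7, a mannanase, rose (0.43). Of 17 genes of gibberellin and light control 2 rose, GA20OX3 of gibberellin synthesis (0.46) and the DELLA repressor RGL3 (0.27), and 2 fell, GASA6, a gibberellin-induced peptide (-0.50), and the germination repressor SPT (-0.31); with plain library sizes 4 fell and none rose. None rose without the low-count filter or without WT heat 1, and 1 fell without WT heat 1 or without atcyp18-1 heat 3. The call of GA20OX3 was lost under 6 of the 14 alternatives, that of RGL3 under 5 and that of SPT under 3. MCM6 (-0.48), of the replication licensing complex, was the 1 called of 6 MCM genes, and its call was lost under 4 alternatives. Without heat 4 of the 6 were lower, against 12.2% of all tested genes. Of 13 oxidative stress genes 5 rose: ZAT12 (0.95), APX2 (0.84), GSTU19 (0.41), CAT2 (0.37) and CAT1 (0.30), the last lost under 8 alternatives. Among 4 tested type-A response regulators, which damp cytokinin signalling, 1 rose: RR8 (AT2G41310) had 105454, 90191 and 110155 CPM in atcyp18-1 heat against 66149, 75962 and 91576 CPM in WT heat, with overlap between mutant library 2 and WT library 3 (0.39 ± 0.10, edgeR adjusted p = 0.0104). This call was lost under 4 alternatives.

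**Figure D3:**
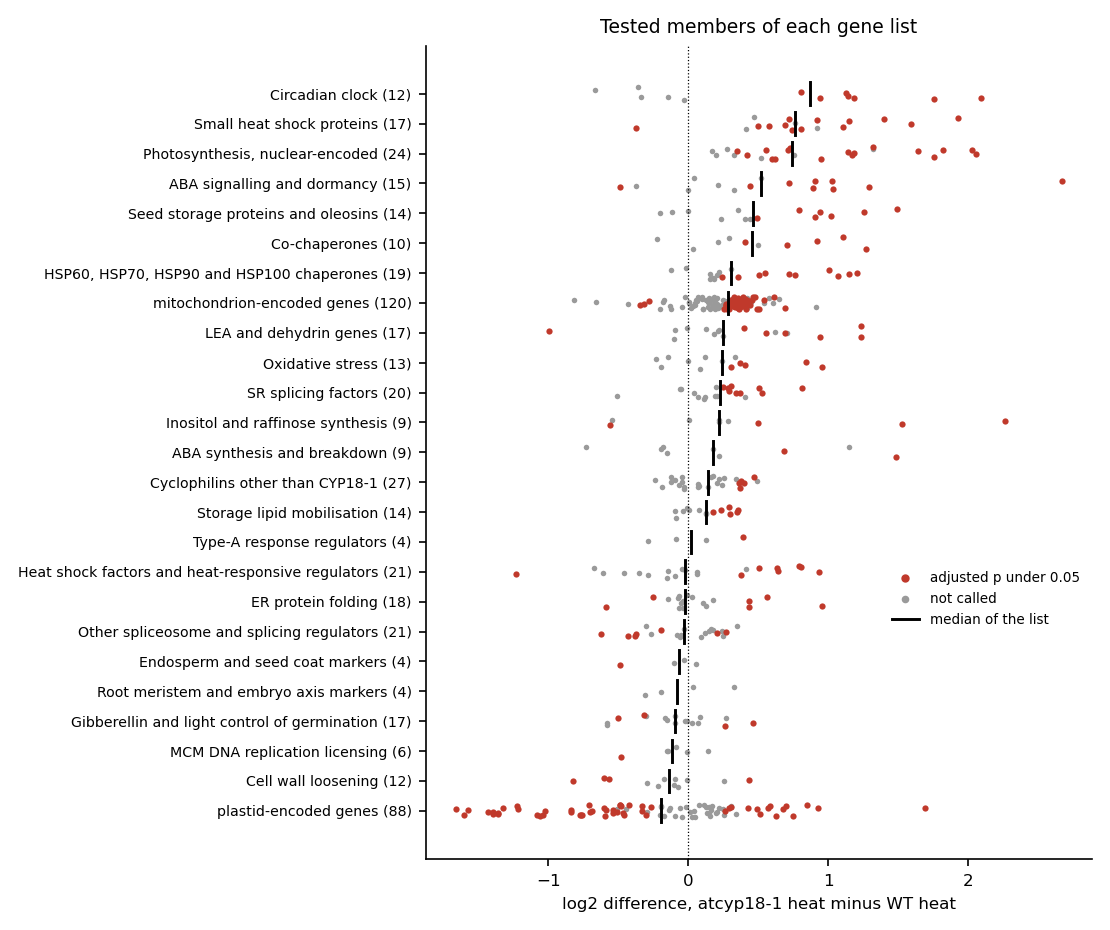
Log2 difference, atcyp18-1 heat minus WT heat, of each tested member of the gene lists (number tested in brackets), with called genes in red, others in grey and the list median as a black bar. Lists with 1 tested gene are left out; among those drawn, clock, small heat shock and photosynthesis genes have the highest medians, 0.87, 0.77 and 0.74, and plastid-encoded genes the lowest, -0.20.

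Among genes of the splicing machinery the SR list had rises only, and the other list had both rises and falls. Of 20 SR genes, whose proteins choose splice sites, 9 rose and none fell by edgeR (median 0.23), against 8.17% and 8.49% of all tested genes. Without heat 8 were higher, against 11.2% of all tested genes. SR45A, an SR-like gene that heat induces, had 268, 176 and 299.8 CPM in atcyp18-1 heat against 145, 105 and 171 CPM in WT heat, 0.82 ± 0.15 higher (SE; edgeR adjusted p = 0.00109). SR30 (0.53), RS31A (0.50), RS2Z33 (0.37), RSZ21 (0.34), SC35 (0.31), SCL33 (0.29), RS41 (0.28) and SR34 (0.25) rose by less. The count of 9 is not firm: it was 2 without atcyp18-1 heat 1, 3 without WT heat 2, 5 without atcyp18-1 heat 3, 5 without WT heat 1 and 2 with plain library sizes. Of 21 other spliceosome genes and splicing regulators 2 rose (9.52%) and 5 fell (23.8%), with a median of -0.03. The share of rises was thus near the 8.17% of all tested genes, and the median was near their -0.02. GRP7, a clock-controlled RNA-binding protein that steers splicing, had 61.9, 64.7 and 64.8 CPM in atcyp18-1 heat against 91.8, 95.4 and 107 CPM in WT heat, -0.62 ± 0.08 (SE; edgeR adjusted p = 3.71e-05). Its relative GRP8 (-0.38), SAD1 (-0.43) and LSM8 (-0.38) of the Lsm ring, and SUS2 (AT1G80070, the PRP8-type core protein, -0.19) fell. MAC3B of the PRP19 complex (0.27) and U2AF65A, which binds the polypyrimidine tract (0.21), rose. With plain library sizes 7 of these genes fell and none rose. None rose and 2 fell without atcyp18-1 heat 1, and none rose and 3 fell without the low-count filter, without WT heat 2 or without atcyp18-1 heat 3. The call of GRP8 was lost under 7 alternatives and that of MAC3B under 6. Among 27 other cyclophilins 5 rose, against 8.17% of all tested genes: CYP59 (0.47), CYP38 of the thylakoid lumen (0.40), AT4G32420 (0.38), ROC1 (0.37) and CYP20-2 (0.37), none by more than 0.50; with plain library sizes 1 rose, 3 fell and the median turned to -0.01. The rises numbered 2 without atcyp18-1 heat 1 and 3 without WT heat 2, without atcyp18-1 heat 3 or without the low-count filter.

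Organelle-encoded genes differed by function. Since poly(A) selection passes little organelle RNA, these values cover only what entered a library. Plastid-encoded genes took 5.27%, 5.22% and 5.60% of counts in atcyp18-1 heat against 4.89%, 4.46% and 5.04% in WT heat (two-sided exact permutation p = 0.1, the smallest possible). Of 88 plastid genes 15 rose and 39 fell (median -0.20), against 8.17% and 8.49% of all tested genes. Genes of photosystem II rose in 9 of 15 cases with none lower, and ribosomal protein genes fell in 20 of 26 with 1 higher. All 4 RNA polymerase subunits fell. PSBA, the D1 reaction centre protein, had 30816, 28108 and 33962 CPM in atcyp18-1 heat against 18538, 18584 and 23132 CPM in WT heat, 0.62 ± 0.09 higher (SE; edgeR adjusted p = 7.14e-05). PSBC (0.68), PSBB (0.58), PSBD (0.52) and the large Rubisco subunit RBCL (0.43) also rose. A run of 9 adjacent genes from RPOA to RPS19, part of 1 operon, had differences of -1.04 to -1.66, all called lower. Groups overlapped in none, which was a condition for the 4 of them named among the largest falls. Plastid RPS3 (ATCG00800) had 65.4, 71.9 and 81.9 CPM in atcyp18-1 heat against 270.4, 213 and 206 CPM in WT heat (-1.66 ± 0.11, edgeR adjusted p = 2.45e-09), with RPL22 (-1.60), RPL14 (-1.57) and plastid RPL16 (ATCG00790, -1.43) beside it. MATK, the plastid intron maturase, had 213, 292 and 252 CPM in atcyp18-1 heat against 704, 593 and 643 CPM in WT heat (-1.36 ± 0.13, edgeR adjusted p = 8.56e-07). RPL33 ran against the other ribosomal genes, at 88.4, 97.1 and 82.2 CPM in atcyp18-1 heat against 30.01, 23.46 and 29.2 CPM in WT heat (1.69 ± 0.27, edgeR adjusted p = 0.000214), and it was lower in the mutant without heat (-1.06). Genes of the inverted repeat have identical copies and share reads.

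Mitochondrial genes took 7.93%, 7.74% and 8.44% of counts in atcyp18-1 heat against 7.21%, 6.77% and 7.59% in WT heat (two-sided exact permutation p = 0.1, the smallest possible). Of 120 tested 53 rose and 3 fell (median 0.29), against 8.17% and 8.49% of all tested genes. The rises were 29 without atcyp18-1 heat 3, 30 without WT heat 2 and 21 with plain library sizes. COX1, a subunit of cytochrome oxidase, had 9794, 9408 and 11026 CPM in atcyp18-1 heat against 7516, 7107 and 8603 CPM in WT heat (0.38 ± 0.08, edgeR adjusted p = 0.00252). ATP1 of the ATP synthase (0.39), NAD7 of complex I (0.38) and COB (0.27) rose by similar amounts. The 3 that fell encode ribosomal proteins, RPS3 (ATMG00090, -0.35), RPL16 (ATMG00080, -0.32) and RPS4 (ATMG00290, -0.28). Chromosome 2 holds near-identical copies of some mitochondrial genes, which share their reads.

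The unheated libraries put the heated difference in context. The heated and the unheated comparison share no library. Both came from 1 model of all 12 libraries, with the same filter, scaling and estimate of spread, so they are not separate tests. Without heat 4047 genes (23.4%) differed between atcyp18-1 and WT. Of these 1401 were called in the same direction in heat, 48.6% of the heated calls and 34.6% of the unheated ones, 674 higher and 727 lower in the mutant in both. A further 35 were called in opposite directions, 24 of them lower without heat and higher in heat. The difference between the heated and the unheated genotype difference was called for 187 genes (1.08%), of which 98 were also called in heat. Among them HSP21 was 1.401 higher in heat and -1.84 without heat, Hsp70b 1.21 and -0.68, and BAG6 1.103 and -0.70. Clock, photosynthesis and storage genes had none called in this test, for example PRR9 at 2.09 in heat and 1.73 without heat and CRC at 1.49 and 1.81. The count of 187 was not firm: it was 12 without atcyp18-1 heat 1, 22 without atcyp18-1 heat 3 and 314 without WT heat 1.

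**Figure D4:**
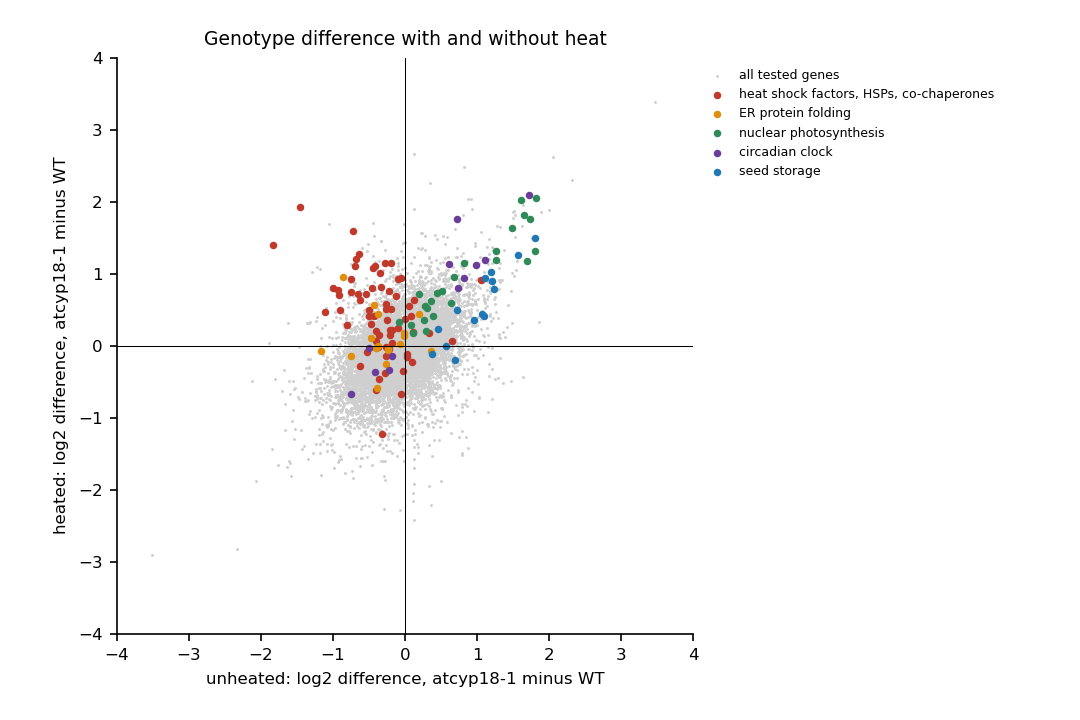
Log2 difference, atcyp18-1 minus WT, in heated seeds (vertical axis) against unheated seeds (horizontal axis) for all 17296 tested genes (grey), with 5 sets of listed genes in colour. Clock, photosynthesis and storage genes lie mostly in the upper right, and many heat shock genes lie in the upper left, higher in heat and lower without it.

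Intron retention differed mostly in 1 direction. The authors' deposited table for heated seeds listed 310 introns of 254 genes, each with an unadjusted p of at most 0.05 and a ratio of at least 1.7 between genotypes. Intron reads, as a percent of reads on the adjacent exons, were higher in atcyp18-1 heat for 232 introns of 184 genes (74.8%) and lower for 78 introns of 71 genes. Over the 232 the median percent was 25.4 in atcyp18-1 heat and 11.9 in WT heat. At a deposited p under 0.01 there were 52 higher and 22 lower introns. The gene of a higher intron was called higher in 69 cases, lower in 27 and not called in 136. These are counts of introns, so a gene with several listed introns counts more than once. Over all tested genes 8.17% were called higher and 8.49% lower. For unheated seeds the deposited table listed 282 introns, 276 higher and 6 lower in the mutant, and 12 introns were in both tables, 3.87% of the heated and 4.26% of the unheated list, 10 of them higher in both.

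Introns higher in the mutant are given first by the smallest deposited p, then by the lists above; MIPS2, the ER folding genes and, among the lower introns, AT3G20390 were chosen after their values were seen. UBP12, a deubiquitinase, kept intron 22 of 31 at 34.6 ± 2.03 percent in atcyp18-1 heat against 15.6 ± 2.03 percent in WT heat (SD, n = 3 each). DDB1A, an adaptor of CUL4 ubiquitin ligases, kept intron 15 at 27.3, 25.2 and 24.2 percent in atcyp18-1 heat against 11.8, 9.89 and 12.2 percent in WT heat, and ING2, a reader of histone methylation, kept intron 2 at 31.1, 35.4 and 33.1 percent against 12.7, 14.9 and 17.9 percent in WT heat. These introns rest on few scaled reads, 20, 13.5 and 17.3 in atcyp18-1 heat against 10, 7 and 11.5 in WT heat for UBP12. Within the splicing lists, PRL1 of the PRP19 complex kept intron 9 at 29.4, 24.0 and 33.3 percent in atcyp18-1 heat against 8.62, 3.64 and 15.5 percent in WT heat, and the PRP8-type gene SUS2 (AT1G80070) kept intron 21 at 9.81, 7.83 and 11.0 percent against 4.61, 6.70 and 5.25 percent in WT heat. Their gene levels were -0.03 (not called) and -0.19 (lower). BIP1 kept intron 5 at 4.90, 2.83 and 4.57 percent in atcyp18-1 heat against 0.768, 1.14 and 1.95 percent in WT heat. CNX1 intron 1, CRT1B intron 1, ERDJ3B intron 1, AT5G07340 intron 4, CPHSC70-1 intron 6 and HSP90.6 introns 5 and 15 were also higher in the mutant, as was MIPS2 intron 1 at 66.8, 78.2 and 70.8 percent in atcyp18-1 heat against 51.4, 23.4 and 43.3 percent in WT heat.

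A smaller number of introns was lower in the mutant. ERDJ3A, whose gene level was 0.96 higher, had intron 4 at 27.7, 43.9 and 28.1 percent in atcyp18-1 heat against 61.7, 79.2 and 63.2 percent in WT heat, the only lower intron among the ER folding genes. AT3G20390, with a gene level close to equal (0.07, not called), had intron 4 at 6.70, 2.70 and 3.65 percent in atcyp18-1 heat against 14.5, 17 and 17.7 percent in WT heat. Plastid PCLPP, a subunit of the Clp protease, had intron 1 at 28.9, 30.4 and 27.2 percent in atcyp18-1 heat against 80.3, 80.1 and 74.3 percent in WT heat, the smallest deposited p of the table (0.000259), and it was lower without heat as well. ACO3, an aconitase, had 5 of its 18 introns lower, while NAI2, of ER bodies, had 6 of 25 higher and IDH-V, an isocitrate dehydrogenase, had 5 of 6 higher, with gene levels of 0.02 (not called), -0.56 (lower) and 0.28 (higher).

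The introns of 4 genes with higher and 2 with lower retention are shown 5′ to 3′ on the strand of the gene, from the coordinates of the authors' table and the TAIR10.1 genome, to let their lengths and splice sites be compared; capitals mark the first and last bases, GT and AG. They are UBP12 intron 22 (chr5:2021588-2021654, minus strand), PRL1 intron 9 (chr4:9025714-9025783, plus), SUS2 intron 21 (chr1:30126626-30126704, plus), BIP1 intron 5 (chr5:10541176-10541265, minus), ERDJ3A intron 4 (chr3:2738121-2738275, plus) and AT3G20390 intron 4 (chr3:7110471-7110565, minus), all between coding exons.
UBP12 intron 22: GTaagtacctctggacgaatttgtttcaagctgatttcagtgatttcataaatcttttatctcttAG
PRL1 intron 9: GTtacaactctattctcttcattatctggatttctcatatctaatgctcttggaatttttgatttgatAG
SUS2 intron 21: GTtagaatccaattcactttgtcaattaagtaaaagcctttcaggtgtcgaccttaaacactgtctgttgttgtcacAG
BIP1 intron 5: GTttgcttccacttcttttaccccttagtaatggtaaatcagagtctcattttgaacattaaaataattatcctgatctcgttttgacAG
ERDJ3A intron 4: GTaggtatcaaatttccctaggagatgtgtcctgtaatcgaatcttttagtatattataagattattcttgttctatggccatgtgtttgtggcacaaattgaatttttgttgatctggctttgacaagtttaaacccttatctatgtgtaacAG
AT3G20390 intron 4: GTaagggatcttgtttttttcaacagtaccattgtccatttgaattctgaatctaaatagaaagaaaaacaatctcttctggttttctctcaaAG
The UBP12 intron opens with GTAAGT, and so does that of AT3G20390, which was lower. Over all listed introns this start was found in 8.19% of the 232 higher, in 13% of 77 lower nuclear introns and in 8.99% of 104816 introns annotated in the tested nuclear genes. The higher introns were 123 bases long in the median, the lower ones 229, those higher in unheated mutant seeds 346.5 and all annotated ones 102. First introns of a transcript made up 52 of the 232 higher, 14 of the 77 lower and 19452 of all 104816. GC content was 33.3%, 32.1% and 33.2%. These shares describe lists picked by the authors' thresholds and were not tested.

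**Figure D5:**
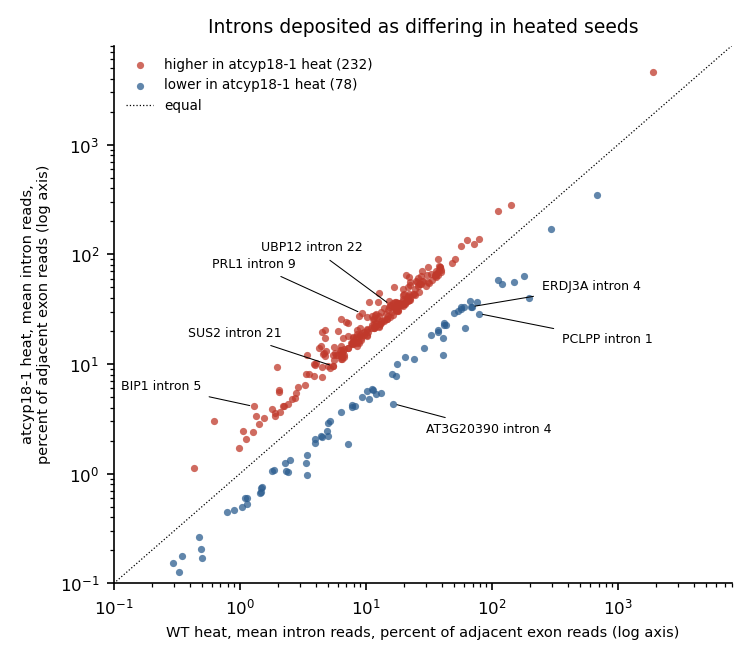
Mean intron reads as a percent of adjacent exon reads for the 310 introns of the authors' table, atcyp18-1 heat (vertical) against WT heat (horizontal), both on log axes, with introns higher in the mutant in red and lower ones in blue. The 232 higher introns lie above the dotted line of equal values and the 78 lower ones below it, and no point lies near the line because the table holds only introns past the authors' thresholds.

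Splice junction reads were mostly lower in the mutant. The authors' deposited tables for heated seeds listed 153 events in 136 genes, 6 with more and 147 with fewer reads in the mutant: 2 and 56 of alternative 5′ splice sites, 3 and 69 of alternative 3′ splice sites, and 1 and 22 of exon skipping. The reads are not scaled to depth, and the mean total of the mutant libraries was 88.6% of that of WT. Per gene-level count 14 were higher and 138 lower, and 1 event had no gene count. These include INVH (higher) and AT5G22505 (lower), whose gene counts were only 1 to 3 per library, so the scaling does not hold for them. The 153 events are not all separate junctions: 32 of them, 13 sets within 1 gene and 3 across a pair of genes, carry the same 6 read numbers as another event, which leaves 137 distinct sets, 5 higher and 132 lower. Of the 147 lower events, 60 were in genes called lower and 5 in genes called higher, against 8.49% and 8.17% of all tested genes. XTH9, also lower as a gene, is an example: a 3′ splice site junction had 202, 200 and 134 reads in atcyp18-1 heat against 470, 410 and 416 reads in WT heat, but 292 and 318 per 1000 gene counts. VPS20.1, of membrane sorting, had 12, 7 and 13 reads on a 5′ splice site junction in atcyp18-1 heat against 34, 37 and 34 in WT heat, or 191 against 324 per 1000 gene counts. BAK1, a co-receptor kinase, had 14, 8 and 12 exon-skipping reads in atcyp18-1 heat against 20, 24 and 22 in WT heat, or 47.1 against 69.5 per 1000 gene counts. The event with the smallest deposited p (0.00027) was a 3′ splice site of RRP41L, an exosome subunit. It had 26, 24 and 28 reads in atcyp18-1 heat against 43, 46 and 46 in WT heat, but 171 against 197 per 1000 gene counts.

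For 4 events the tables listed 0 reads in all 3 atcyp18-1 heat libraries. AT5G16130 had 29, 38 and 35 reads of its 5′ splice site event in WT heat, and the 3′ splice site events of SAC52, a ribosomal protein of the large subunit, of AT1G61150 and of VEL1, a Polycomb-associated gene, had 22, 23 and 20, 18, 16 and 22, and 15, 21 and 30 reads in WT heat. The smallest count above 0 in the tables was 6, so a listed 0 may stand for a few reads. In the other direction, EEL, a bZIP factor of seed maturation, had 34, 36 and 37 reads of a 3′ splice site in atcyp18-1 heat against 14, 21 and 17 in WT heat, or 219 against 132 per 1000 gene counts. LHY had 14, 31 and 30 reads in atcyp18-1 heat against 0, 6 and 8 in WT heat on 1 junction that is listed both as a 3′ splice site and as exon skipping, or 164 against 51.9 per 1000 gene counts. AT3G54500 had 14, 15 and 23 reads in atcyp18-1 heat against 0, 0 and 8 in WT heat. At a deposited p under 0.01 there were 1 higher and 28 lower events.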

How the data were processed

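Polyadenylated RNA of 12 seed libraries (3 for each of 4 groups, per the labels) was sequenced; 6 heated libraries make the comparison. The authors deposited read counts per transcript, to which 1 appears to have been added (no count is 0 and the lowest is 1); each gene is represented by its annotated transcript with the lowest number. The submitters' processing notes name HTSeq and DESeq; for aligner, strand use, splicing caller and build, names were not given in the sources used here. Splicing tables hold, per the file headers, junction read counts, intron retention ratio values between genotypes, a normalized intron signal ("Normalized count") and an unadjusted p-value, as the authors deposited them. The authors' junction reads are not scaled to depth, and these tables list only events past the authors' thresholds.

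Counts were fitted with edgeR 4.0.16 (R 4.3.3; TMM, filterByExpr, quasi-likelihood F test) as 1 model of 4 group means over 12 libraries; adjusted p-values are Benjamini-Hochberg over all 17296 tested genes, with a threshold of 0.05. The standard error is the size of the log2 difference divided by the square root of F. Gene names, positions and sequences came from TAIR10.1 (23127 of 23337 genes matched). The script was tested on simulated data. Alternatives were DESeq2 1.42.0, other scalings, no filter, the 6 heated libraries alone, the replicate block, counts minus 1 and leaving out each library.

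Named genes were CYP18-1, the 15 largest rises and 15 largest falls among called genes with non-overlapping groups and at least 5 CPM in the higher group, up to 5 called members per list, 5 splicing events per type by p-value and events in list genes; other list members are given by value. Members and lists were chosen with earlier results of these data known. Without strand information, overlapping genes cannot be told apart. Library totals ran from 7468922 to 10506481 counts in the 6 heated libraries.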

Additional observations from a re-analysis of the deposited data

Results flagged for a closer look

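Genes named above whose genotype difference in heat departed from that without heat by edgeR's interaction term (adjusted p under 0.05) are given here as the heated minus the unheated log2 difference. Among chaperones and their partners it was 3.24 for HSP21, 1.89 for Hsp70b, 1.80 for BAG6, 1.62 for ROF1, 1.52 for CLPB3, 1.42 for HSP101, 0.99 for MTHSC70-2 and 0.90 for HOP2. In the ER folding list it was 0.99 for AT5G07340 and 0.80 for BIP1. Outside these lists it was 1.92 for MIPS2, and it was negative for LOJ at -1.27 and for AT2G32210 at -1.42. The count of such genes over the whole table was 12 without atcyp18-1 heat 1 and 314 without WT heat 1, against 187 with all libraries.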

How the results depend on the processing

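Genes higher in atcyp18-1 heat numbered 577 with plain library sizes and 888 without the low-count filter, and genes lower numbered 3505 with plain library sizes and 1258 without the filter. Leaving out 1 library gave 825 to 1350 higher and 864 to 1345 lower. DESeq2 gave 1237 and 1018. The higher share of calls was 49.0% with TMM, 53.3% with DESeq2 size factors, 54.9% by DESeq2, 41.4% without the filter and 14.1% with plain library sizes. The replicate numbers share only a number: heated libraries of the same number correlated at -0.062, 0.084 and 0.105, and not every library correlated best with its own number; with the replicate block 1550 genes were higher and 1562 lower. The test of the heated against the unheated difference gave 187 genes, 22 without the filter, 323 with the replicate block, and 12 to 314 when 1 library was left out, 34, 55 and 99 without unheated WT 1, 2 and 3, 57, 111 and 43 without unheated atcyp18-1 1, 2 and 3, 38 and 124 without heated WT 2 and 3, and 291 without heated atcyp18-1 2. The cause was not tested. Of 116 named genes other than CYP18-1, 82 were called under every alternative run and 0 changed direction. CYP18-1 was called lower under all of them. Of the introns, 52 higher and 22 lower had a deposited p under 0.01, and 114 and 34 a ratio of at least 2; of the junction events 1 higher and 28 lower had such a p, 85 lower had such a ratio, and 14 were higher per gene-level count. Leaving out 1 library turned the direction of no listed splicing event. For the introns it could not, because in all 310 the groups did not overlap. The junction events had likewise been picked by the authors' thresholds, so this is no check on either.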
